A study of Mus musculus with 6 samples.

Results

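Transcripts of the RANKL, osteoprotegerin and M-CSF system were examined in the cortical bone of mouse tibiae, as 10 genes chosen by name from the comparison of an adenine diet with a control diet. They are the ligands Tnfsf11 (RANKL), Csf1 (M-CSF) and Il34 (IL-34), the decoy receptor Tnfrsf11b (osteoprotegerin), and the receptors Tnfrsf11a (RANK) and Csf1r. The others are the adaptor Traf6 and the transcription factors Nfatc1, Prdm1 (Blimp-1) and Irf8. All 10 were found among the 25721 genes of the deposited comparison, and all 10 were among the 15609 genes kept after a filter on low counts.

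The mice were wild-type, of a strain and sex not given in the labels. They received a control diet or one containing adenine at 0.2% by weight from 8 weeks of age, for 4 weeks, and the bones were taken at 12 weeks. Adenine injures kidney tubules, and feeding it models chronic kidney disease. Tibia ends were cut off, the marrow was flushed out and polyA RNA of the powdered cortex was sequenced, with 3 libraries per diet, called control 1 to 3 and adenine 1 to 3 here. Whether the libraries of a group are from different animals is not stated in the labels, so the p-values reflect only the spread among these libraries, which may be technical.

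Osteoclasts, the cells that resorb bone, form by fusion of precursors of the monocyte and macrophage lineage. M-CSF, made by osteoblasts, osteocytes, stromal cells and others, acts through Csf1r to keep the precursors alive and dividing. RANKL, carried by osteocytes, osteoblast-lineage cells and some lymphocytes, binds RANK on the precursors, and the signal runs through TRAF6 to NFATc1, the main transcription factor of osteoclast formation. Osteoprotegerin is a secreted receptor that captures RANKL before it reaches RANK, so the balance of RANKL to osteoprotegerin is widely used as an index of the drive to form osteoclasts.

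Total counts were 9977694 to 14598010 per library. Summed levels of osteoblast markers (Col1a1 and Col1a2 the most abundant) were 12365 to 14158 CPM (counts scaled to library size) in the control and 12836 to 34391 CPM in the adenine libraries. Osteocyte markers (9 of 9 tested) summed to 240 to 557 CPM in the control and 127 to 188 CPM in the adenine libraries. Skeletal muscle markers (7 of 7 tested) varied widely, from 16486 to 70274 CPM and from 2108 to 48570 CPM, with control 3 highest and adenine 1 lowest. Kidney tubule markers (7 of 7 tested) summed to 47.8 to 256 CPM in the control and 109 to 1858 CPM in the adenine libraries, highest in adenine 1. Neutrophil markers summed to 1403, 3729 and 396 CPM in control libraries 1 to 3, against 3103 to 3996 CPM in the adenine libraries. Red cell markers summed to 37798, 61266 and 8632 CPM in control libraries 1 to 3, against 41330 to 62641 CPM in the adenine libraries. Both lists overlapped between the diets, with control 2 highest and control 3 lowest of the controls. No marker examined was at 0 in every library, and the part of these tissues in the results below was not tested except where a value is given.

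Promoter sequences are shown for the ligands Tnfsf11 and Csf1 and the receptor Tnfrsf11a, because all 3 had higher transcript levels in every adenine library than in any control library. They are the 250 bases before the RefSeq transcription start in build GRCm38.p6, 5′ to 3′ on the strand of the gene, from chr14:78308044-78308293 (minus strand), chr3:107760470-107760719 (minus strand) and chr1:105780473-105780722 (plus strand). Capitals mark the TATA box (TATAA), the CCAAT box (CCAAT) and the GC box (GGGCGG), each searched on both strands.
Tnfsf11: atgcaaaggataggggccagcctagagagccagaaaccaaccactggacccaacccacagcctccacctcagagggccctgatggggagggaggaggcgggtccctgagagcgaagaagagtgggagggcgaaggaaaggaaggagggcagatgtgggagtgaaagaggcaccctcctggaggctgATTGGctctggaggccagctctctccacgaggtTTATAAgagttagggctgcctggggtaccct
Csf1: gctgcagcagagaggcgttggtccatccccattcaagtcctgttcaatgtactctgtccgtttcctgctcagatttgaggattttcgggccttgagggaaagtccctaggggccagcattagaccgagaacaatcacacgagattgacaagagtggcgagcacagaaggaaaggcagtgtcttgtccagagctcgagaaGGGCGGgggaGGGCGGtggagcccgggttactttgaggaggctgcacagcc
Tnfrsf11a: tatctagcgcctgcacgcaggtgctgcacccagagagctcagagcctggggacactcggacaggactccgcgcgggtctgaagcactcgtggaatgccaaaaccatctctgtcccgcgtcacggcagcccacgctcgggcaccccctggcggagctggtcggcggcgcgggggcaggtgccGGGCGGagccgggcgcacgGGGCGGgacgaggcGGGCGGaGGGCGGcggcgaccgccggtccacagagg
The Tnfsf11 promoter held a TATA box that reads on both strands, so that its 2 overlapping matches span bases -31 to -26 from the start site, and a CCAAT box on the opposite strand at -64 to -60. The Csf1 promoter held 2 GC boxes, at -51 to -46 and -41 to -36, and the Tnfrsf11a promoter held 4, between -69 and -24. Of 32851 mouse promoters of the same length, 22.8% held TATAA, 33.8% held CCAAT and 32.7% held GGGCGG, so each motif is common. The GC content was 60.4% for Tnfsf11, 56.4% for Csf1 and 73.6% for Tnfrsf11a, against a median of 52.4% for all promoters. None of these 3 windows held the searched letters of a RUNX motif (ACCACA, in 14.0% of promoters), an AP-1 motif (TGANTCA, 6.75%), a PU.1 motif (GAGGAA, 23.3%) or a vitamin D receptor motif (a direct repeat, in 0.00609%).

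In the bones of adenine-fed mice the transcripts for RANKL, M-CSF and their receptors stood above those of control bones, and the transcript for osteoprotegerin stood below. By edgeR's quasi-likelihood test, 6 of the 10 genes had an unadjusted p under 0.05, 5 of them higher with adenine (Csf1r, Csf1, Tnfrsf11a, Tnfsf11 and Nfatc1) and 1 lower (Tnfrsf11b). Over all genes tested the same threshold was met by 10.7%, with 4.22% higher and 6.49% lower. After Benjamini-Hochberg adjustment in edgeR none of the 10 passed 0.05, and neither did any other gene (0% of 15609, smallest adjusted p 0.1685), although 1671 genes had an unadjusted p under 0.05. The DESeq2 Wald test, run on the same counts as an alternative, called 3 of the 10, with Csf1r (adjusted p = 0.00383) and Csf1 (0.0212) higher and Tnfrsf11b (0.0103) lower, against 1.93% of all genes with an adjusted p, 0.642% higher and 1.29% lower. The authors' deposited table calls the same 3 of the 10, and 1.4% of its genes. Its 361 calls are the same 361 genes as in the DESeq2 test here, so it is not a separate result. The shares differ because 1.93% is of 18691 genes and 1.4% of 25721.

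CPM of the adenine libraries lay wholly above those of the control libraries for 6 of the 10 genes (the 5 named above and Prdm1) and wholly below for Tnfrsf11b. Over all genes tested 16.5% did not overlap, 7.68% above and 8.86% below. The median log2 fold change of the 10 genes was 0.72, with 8 positive and 2 negative, beside a median near 0 (-3.85e-07) over all genes tested. In bulk RNA of this kind, fewer cells of a type and less RNA per cell cannot be told apart.

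**Figure D1:**
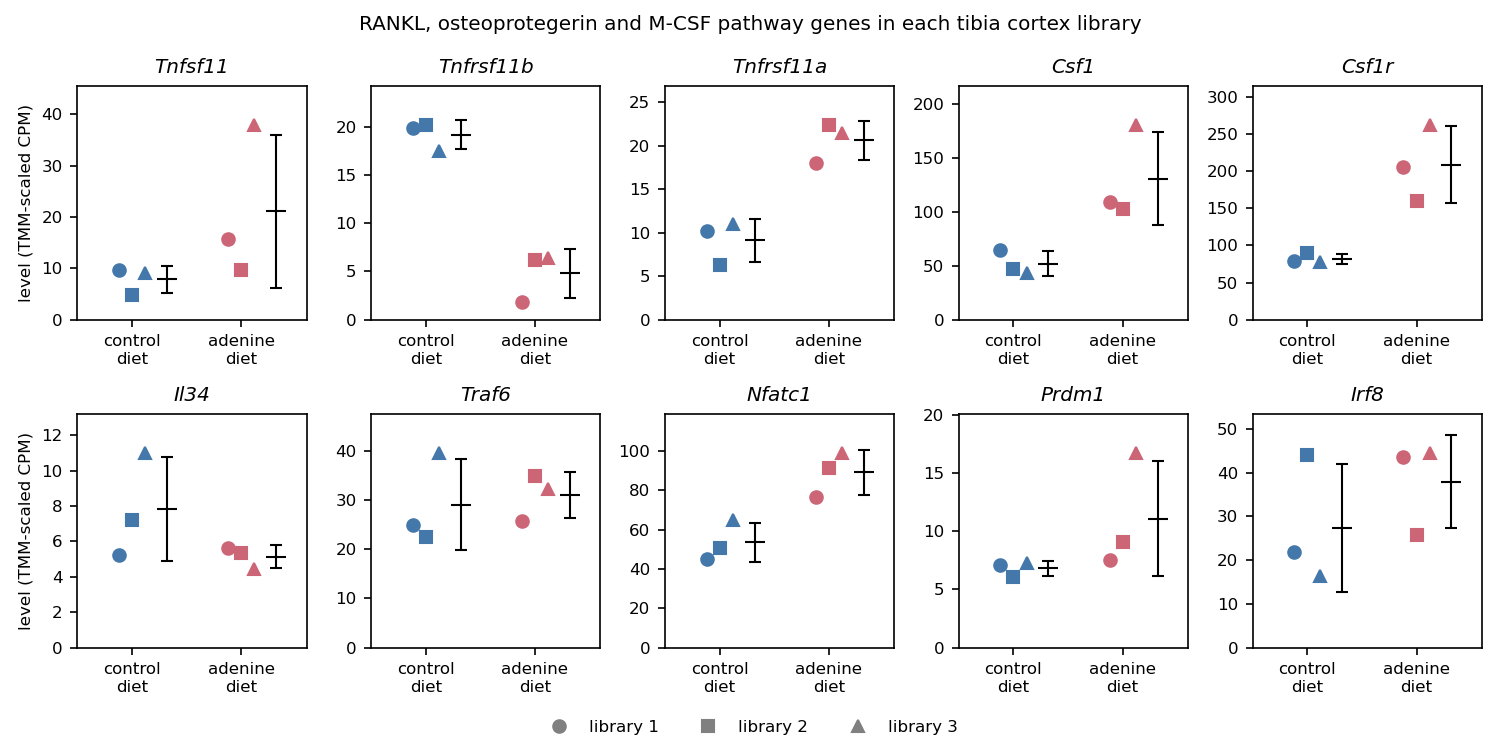
TMM-scaled CPM of the 10 genes in each library, by diet, on linear axes from 0. Each point is 1 library, shaped by its number, and the bar beside each group is the mean ± SD (n = 3). For Tnfrsf11b the adenine points lie at 1.85 to 6.38 CPM, below the control points at 17.5 to 20.2 CPM, and for Csf1r at 159 to 262 CPM, above the control points at 77.4 to 89.4 CPM.

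Tnfsf11, which encodes RANKL (chromosome 14, 78514885 to 78545483, minus strand, in the coordinates of the files, whose build is not given), had 9.60, 4.84 and 9.19 CPM in control libraries 1 to 3. It had 15.8, 9.66 and 37.9 CPM in adenine libraries 1 to 3. Adenine 3 was far above the rest, and adenine 2 only just above control 1. The fitted log2 fold change was 1.42 (SE 0.54; 2.68-fold), with an unadjusted p under 0.05 and an edgeR adjusted p of 0.426. In 4 of the 6 fits that left out 1 library, those without control 1, control 2, control 3 or adenine 3, the unadjusted edgeR p was no longer under 0.05. The log2 fold change was 1.59, 1.17, 1.54 and 0.69 in these. The threshold was also missed without both control 3 and adenine 1 (1.72) and with the level of skeletal muscle markers as a covariate (0.93).

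Tnfrsf11b, which encodes osteoprotegerin (chromosome 15, 54114015 to 54141880, minus strand), moved the other way and showed the greatest fold difference of the 10. Control libraries had 19.8, 20.2 and 17.5 CPM and adenine libraries 1.85, 6.19 and 6.38 CPM. The control values lay close together, and the highest adenine value was under the lowest control value by more than the whole control range. The log2 fold change was -1.99 (SE 0.47; 3.97-fold lower), with an edgeR adjusted p of 0.245. The lowest value was in adenine 1, the library with the most kidney and least muscle marker RNA, and without it the log2 fold change was -1.61. It was -1.43 with the kidney marker level as a covariate and -1.67 with the muscle marker level, all 3 at an unadjusted edgeR p under 0.05.

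The ratio of Tnfsf11 to Tnfrsf11b was taken per library from FPKM, the deposited level scaled to gene length and library size, so that it compares both genes per length. In control libraries 1 to 3 it was 0.610, 0.303 and 0.663, and in adenine libraries 1 to 3 it was 10.8, 1.97 and 7.49. Osteoprotegerin transcripts therefore outnumbered RANKL transcripts per length in every control library, and RANKL transcripts outnumbered osteoprotegerin transcripts in every adenine library. Mean log2 ratios were -1.01 ± 0.62 for control and 2.44 ± 1.29 for adenine (SD, n = 3), a difference of 3.45 or 10.9-fold. A two-sided exact permutation test gave p = 0.1, the smallest that 3 libraries against 3 can reach. Leaving out any 1 library gave differences of 2.95 to 4.18 on the log2 scale.

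**Figure D2:**
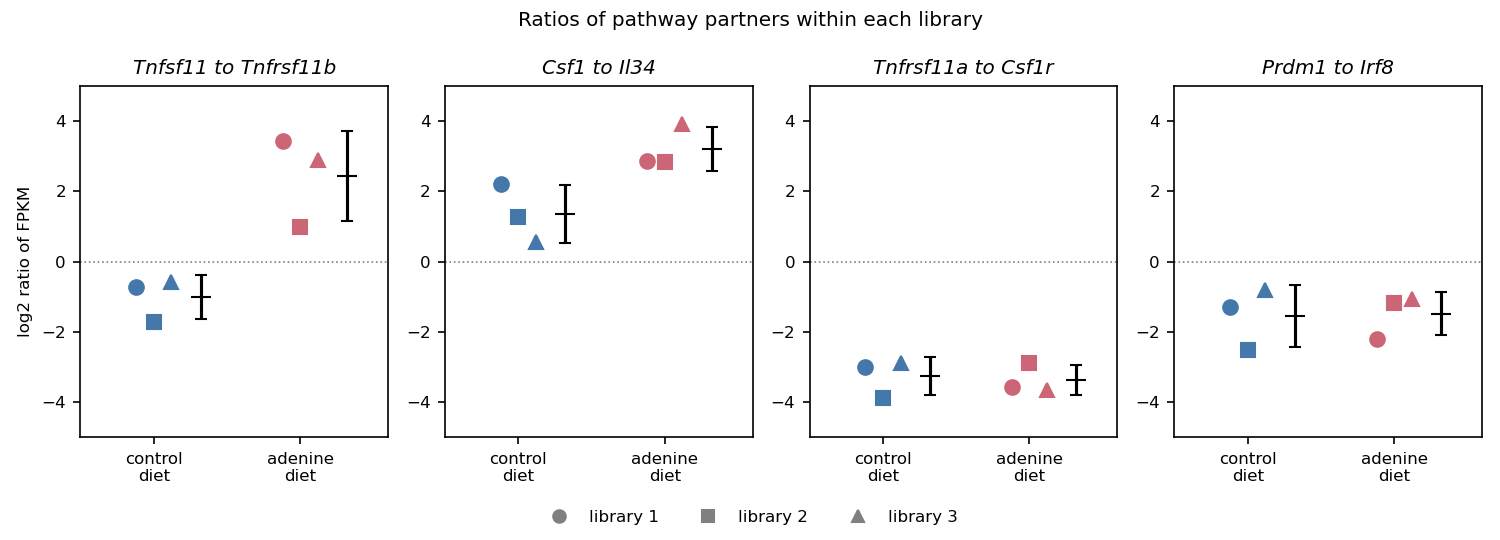
Log2 ratio of FPKM per library, by diet, for 4 gene pairs. Each point is 1 library and the bar beside each group is the mean ± SD (n = 3). For Tnfsf11 to Tnfrsf11b, the control points lie below 0 (mean -1.01) and the adenine points above 0 (mean 2.44).

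Csf1, which encodes M-CSF (chromosome 3, 107648364 to 107667785, minus strand), had 65.0, 47.4 and 43.7 CPM in control bone, against 110, 102 and 181 CPM in adenine bone. The groups did not overlap, and adenine 3 was again the highest. The log2 fold change was 1.33 (SE 0.30; 2.52-fold), with an edgeR adjusted p of 0.243, and it was 1.03 to 1.54 with any 1 library left out.

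Il34 encodes the other ligand of Csf1r, known mainly from brain and skin (chromosome 8, 111468461 to 111532556, minus strand). It had 5.23, 7.22 and 11.01 CPM in the control and 5.64, 5.35 and 4.43 CPM in the adenine libraries, and the groups overlapped. The log2 fold change was -0.61 (SE 0.39; edgeR adjusted p = 0.592), and without control 3 it was -0.25. The ratio of Csf1 to Il34 in FPKM was 4.61, 2.43 and 1.47 in control bone, against 7.22, 7.10 and 15.1 in adenine bone. M-CSF transcripts thus exceeded IL-34 transcripts per length in all 6 libraries, by more in every adenine library (difference in mean log2 ratio 1.85, exact permutation p = 0.1, the smallest possible). This ratio was chosen after the values had been seen, as 1 of 4 ratios computed.

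Csf1r, the tyrosine kinase receptor for both of these ligands (chromosome 18, plus strand), had 79.0, 89.4 and 77.4 CPM in the control libraries. The adenine libraries had 205, 159 and 262 CPM. The control libraries were nearly equal and all 3 adenine libraries lay well above them. The log2 fold change was 1.35 (SE 0.26; 2.55-fold), with the smallest edgeR adjusted p of the 10 genes, 0.180. Without adenine 2 the edgeR adjusted p was 0.0445, in a fit that called 298 genes in all, and without any other 1 library it was 0.206 to 0.602. The gene Hmgxb3 overlaps Csf1r on the opposite strand, and the sources used here do not say whether counting used strand. Hmgxb3 had 75 to 207 counts per library where Csf1r had 1015 to 3488.

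Tnfrsf11a, which encodes RANK (chromosome 1, 105708443 to 105775709, plus strand), had 10.2, 6.34 and 10.9 CPM in the control and 18.0, 22.4 and 21.4 CPM in the adenine libraries. All adenine values exceeded all control values, with a log2 fold change of 1.17 (SE 0.29; 2.25-fold; edgeR adjusted p = 0.264). Traf6, the ubiquitin ligase that carries the signal from RANK (chromosome 2, 101508774 to 101532014, plus strand), had 24.9, 22.5 and 39.6 CPM in the control libraries. It had 25.8, 34.8 and 32.3 CPM in the adenine libraries, within the control range. Its log2 fold change was 0.09 (SE 0.28; edgeR adjusted p = 0.903), and the sign turned when control 2 (-0.060) or adenine 2 (-0.0048) was left out.

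Nfatc1, which RANK signalling induces and which switches on the osteoclast genes (chromosome 18, minus strand), had 45.1, 50.7 and 64.6 CPM in the control and 76.7, 91.2 and 99.0 CPM in the adenine libraries. The groups did not overlap, and the log2 fold change was 0.73 (SE 0.23; 1.66-fold; edgeR adjusted p = 0.350). Without control 1 it was 0.64 and the unadjusted p was no longer under 0.05. Prdm1 encodes Blimp-1, a repressor that lifts the block on osteoclast genes and also acts in plasma cells (chromosome 10, 44313173 to 44404497, minus strand). It had 7.09, 6.07 and 7.29 CPM in the control and 7.49, 9.03 and 16.7 CPM in the adenine libraries. The groups were separate by a small margin and adenine 3 alone was high. Its log2 fold change was 0.70 (SE 0.38; edgeR adjusted p = 0.544), and 0.27 without adenine 3.

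Irf8 encodes a factor that restrains NFATc1 in precursors and is abundant in monocytes, dendritic cells and B cells (chromosome 8, 121463097 to 121483433, plus strand). It had 21.9, 43.9 and 16.3 CPM in the control and 43.4, 25.6 and 44.5 CPM in the adenine libraries. Control 2 and adenine 2 each lay with the other group, and the log2 fold change was 0.47 (SE 0.41; edgeR adjusted p = 0.667). It was 0.99 without control 2, 0.23 without control 3 and -0.15 with the muscle marker level as a covariate.

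**Figure D3:**
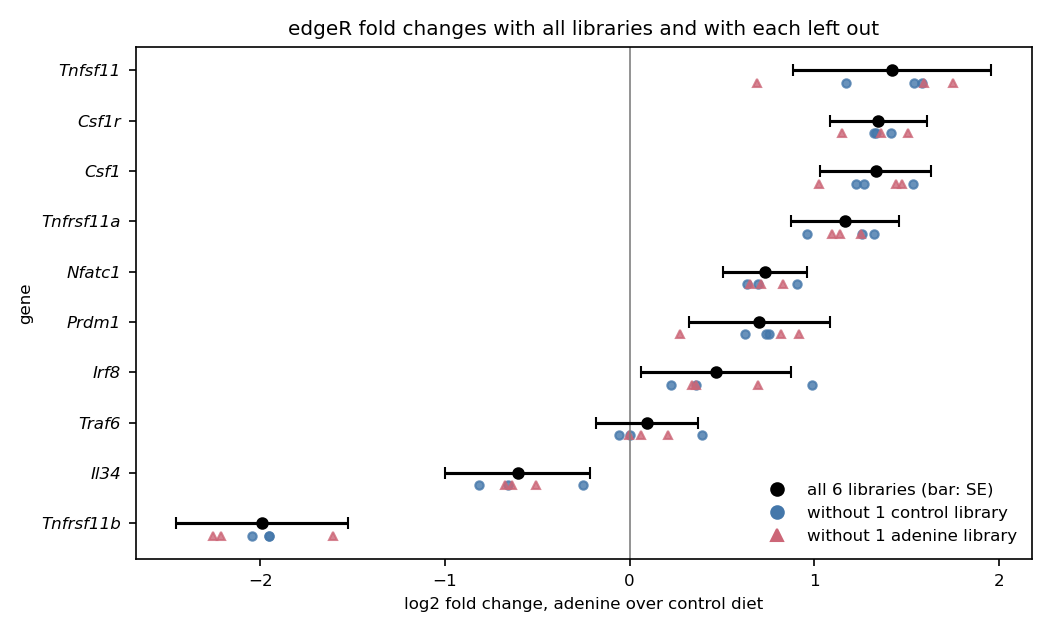
Log2 fold change (adenine over control) of each of the 10 genes from edgeR, with its standard error (black), and the fold changes when each control (blue) or adenine (red) library was left out. Tnfrsf11b lies lowest at -1.99, Tnfsf11 highest at 1.42 with the widest spread on leaving out libraries (0.69 to 1.75), and Traf6 near 0 at 0.09.

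Compared per length, the order of the 10 genes differed between the diets. In control bone Csf1r led with a mean of 13.3 ± 1.05 FPKM (SD, n = 3), followed by Csf1 at 9.22 ± 1.83, Nfatc1 at 6.74 ± 1.42 and Tnfrsf11b at 6.38 ± 0.39 FPKM. The ranges of Csf1, Nfatc1 and Tnfrsf11b overlapped from each to the next. Il34 (3.77 FPKM), Irf8 (3.63), Traf6 (3.47) and Tnfsf11 (3.31) followed below Tnfrsf11b, likewise with overlapping ranges, and Tnfrsf11a (1.44) and Prdm1 (1.15) were lowest. In adenine bone Csf1r (35.2 ± 9.07 FPKM) and Csf1 (24.1 ± 7.91) overlapped at the top, above Nfatc1 at 11.6 ± 1.18 FPKM. Tnfsf11 came next at 9.21 ± 6.42 FPKM, overlapping its neighbours Nfatc1 and Irf8 (5.26). Traf6 (3.80) and Tnfrsf11a (3.34) followed, and Tnfrsf11b was last of the 10 at 1.64 ± 0.84 FPKM, overlapping Prdm1 (1.93) and Il34 (2.56).

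Among marker lists for the myeloid lineage, which carries the receptors, summed osteoclast and macrophage markers were higher in every adenine library. Monocyte, dendritic cell and neutrophil markers overlapped between the diets. Summed osteoclast markers (12 of 12 tested; Car2 and Ctsk the most abundant) were 2338 to 4213 CPM in the control and 6141 to 9232 CPM in the adenine libraries. All 12 had a positive log2 fold change and 9 had an unadjusted edgeR p under 0.05, beside 10.7% of all genes tested. Car2 was not among the 9 (log2 fold change 0.68) and overlapped between the diets. It had 1292, 2153 and 401 CPM in control libraries 1 to 3 and 2521, 1909 and 1752 CPM in adenine libraries 1 to 3. Summed macrophage markers (8 of 9 tested) were 153 to 168 CPM in the control and 221 to 446 CPM in the adenine libraries. Monocyte markers (4 of 4 tested) summed to 101 to 298 CPM in control bone, against 147 to 563 CPM in adenine bone, with adenine 2 inside the control range. Dendritic cell markers (6 of 7 tested) summed to 36.3 to 54.8 CPM and 32.8 to 68.2 CPM, with Xcr1 at 0 in at least 1 library. Relative to the mean log2 CPM of the osteoclast markers, a measure chosen after the values had been seen, Csf1r and Tnfrsf11a overlapped between the diets, with differences of -0.11 and -0.27. On the same scale Nfatc1 and Prdm1 were lower in every adenine library, with differences of -0.69 and -0.84, while Irf8 overlapped (-0.88). Relative to macrophage markers Csf1r was higher in every adenine library, by a mean of 0.46 on the log2 scale.

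Markers of some of the cells known to make RANKL, osteoprotegerin and M-CSF also differed between the diets. Periosteal and tendon fibroblast markers (9 of 9 tested) summed to 706 to 959 CPM in the control and 138 to 364 CPM in the adenine libraries, osteocyte markers were lower as given above, and osteoblast and marrow stromal markers overlapped. Tnfrsf11b was lower in every adenine library relative to osteoblast (log2 difference -2.54), stromal (-1.68) and osteocyte markers (-0.87). Relative to the fibroblast markers it overlapped between the diets (0.12). The mean log2 CPM of the fibroblast markers differed by -2.16 between the diets. That of smooth muscle (-1.89), adipocyte (-1.73), Schwann cell (-2.62) and skeletal muscle markers (-2.40) was lower too. Tnfrsf11b was not compared with these other lists, so the overlap is not particular to fibroblast markers. Csf1 was higher in every adenine library relative to osteoblast (0.80), osteocyte (2.47), stromal (1.66) and fibroblast markers (3.46). Tnfsf11 was higher relative to osteocyte (2.37), stromal (1.56) and fibroblast markers (3.37), and overlapped relative to osteoblast markers (0.70).

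Lymphocytes can also carry RANKL, and B cells osteoprotegerin. B cell markers (7 of 10 tested) summed to 82.0 to 148 CPM in the control and 45.0 to 71.4 CPM in the adenine libraries. Of the 7 tested, 2 had an unadjusted edgeR p under 0.05, both lower. The separation of the sums leans on Ebf1, the most abundant marker, which itself overlapped between the diets. Ebf1 had 42.1, 38.6 and 51.3 CPM in control libraries 1 to 3 and 16.3, 39.9 and 24.9 CPM in adenine libraries 1 to 3. Vpreb1, Vpreb3 and Igll1, too low to be tested, were at 0 in every adenine library. In the control libraries they had 6 to 24, 8 to 81 and 7 to 27 counts. T cell markers (7 of 8 tested) summed to 7.14 to 15.6 CPM and 15.5 to 18.5 CPM, overlapping, with Cd3d and Cd8a at 0 in at least 1 library. Summed markers of Schwann, endothelial, smooth muscle, adipocyte and cartilage cells were also lower in every adenine library, from 319 to 808 CPM down to 91.6 to 132 CPM for the Schwann cell list. The cartilage list was barely separate, at 128.1 to 279.6 CPM in the control and 66.4 to 127.8 CPM in the adenine libraries. Its most abundant marker, Col2a1, had a log2 fold change of -0.07. The part of these cells in the levels of Tnfsf11 and Tnfrsf11b was not tested.

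**Figure D4:**
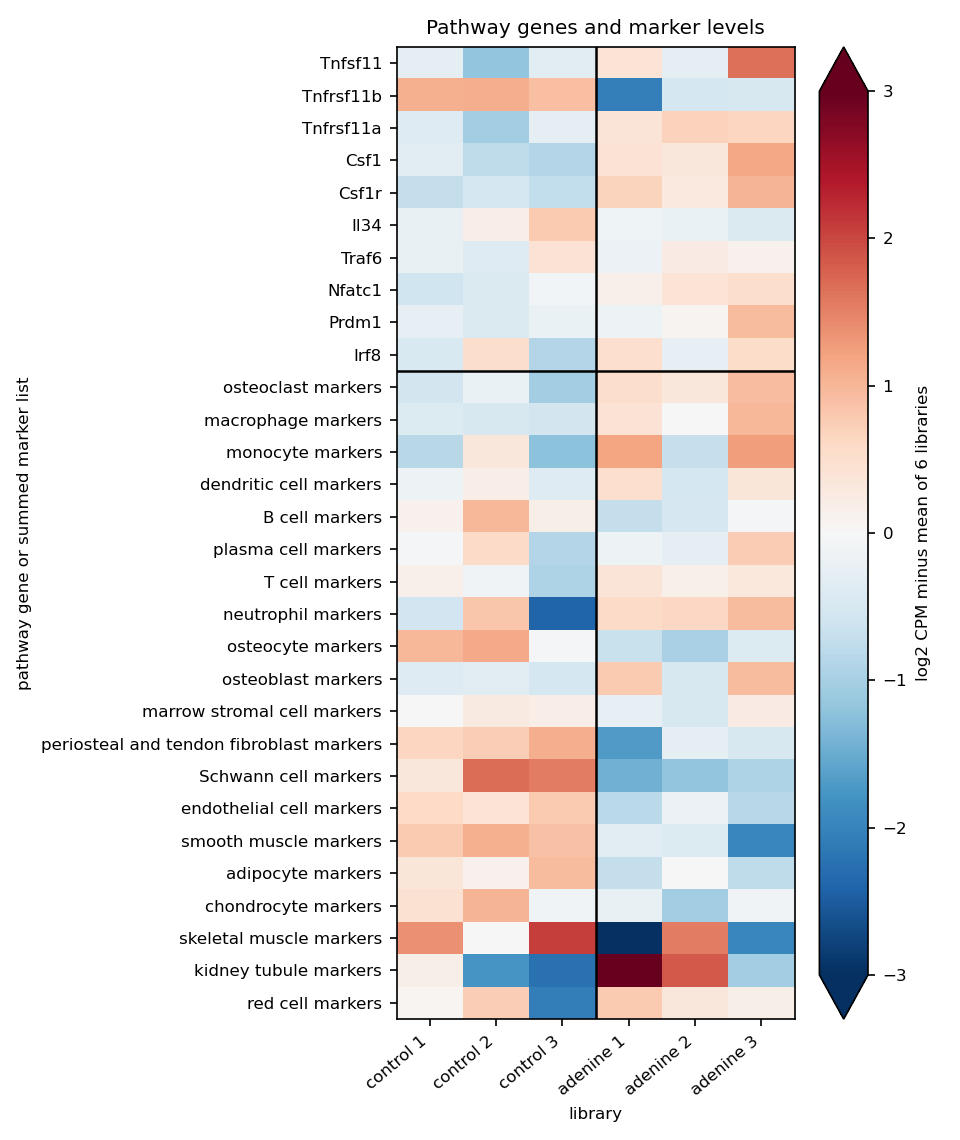
Log2 CPM of the 10 genes and log2 summed CPM of marker lists in the 6 libraries, each centred on its mean over the libraries (colour scale). Csf1r, Tnfrsf11a and the osteoclast markers are higher in each of the 3 adenine libraries than in any control library, and Tnfrsf11b and the fibroblast markers are lower. Osteocyte, B cell, Schwann cell, endothelial, smooth muscle, adipocyte and chondrocyte markers are lower too.

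The other genes of the pathway were described by 9 lists grouped by role, and in none did a gene pass the adjusted threshold in edgeR. Over all genes tested, 10.7% had an unadjusted edgeR p under 0.05 (4.22% higher, 6.49% lower), and 7.68% lay wholly above and 8.86% wholly below. By list the share at that p ran from 0% (RANKL shedding and trafficking) and 4.17% (RANK signal transducers) to 46.2% (osteoprotegerin regulators) and 76.9% (NFATc1 target genes). Of the genes that NFATc1 switches on in osteoclasts, all 13 were tested and all 13 had a positive log2 fold change (median 1.504), 10 had an unadjusted edgeR p under 0.05, and 11 had adenine values wholly above control values. Ocstamp, needed for fusion of precursors, went from 3.99 ± 1.98 to 26.3 ± 9.68 CPM (log2 fold change 2.71, SE 0.48). Oscar, a costimulatory receptor that signals through Fcer1g, went from 6.46 ± 2.93 to 26.4 ± 3.77 CPM (2.03, SE 0.40). Atp6v0d2 (1.67) and Tcirg1 (1.26), subunits of the proton pump that acidifies the resorption pit, were also among the 10. This list is not a result apart from the osteoclast markers, since it holds all 12 of them and adds only Slc9b2.

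Of 24 tested transducers of the RANK signal 1 had an unadjusted edgeR p under 0.05, Tab1, a partner of the kinase TAK1 (27.6 ± 4.03 to 42.8 ± 6.10 CPM; log2 fold change 0.63), and the list median was 0.07. Of 15 osteoclast transcription factors 2 were higher and 2 lower at that threshold, with a median of 0.03. Spi1 (PU.1, which drives Csf1r in the myeloid lineage) was 37.7 ± 16.5 and 85.4 ± 21.2 CPM (1.18), and Jdp2, an AP-1 family member, 33.4 ± 6.80 and 64.3 ± 19.3 CPM (0.95). Esrra (-0.93, with overlapping groups) and Fos, a partner of NFATc1, were the lower ones. Fos had a log2 fold change of -1.73, but its control values ran from 26.3 to 237 CPM and overlapped the adenine values of 29.6 to 43.4 CPM. Of 20 genes of ITAM and calcium signalling, the costimulatory pathway of RANK, 3 were higher and none lower, with a median of 0.08. The 3 were Oscar, Trem2 (1.58) and the ITAM adaptor Tyrobp (1.22). For Trem2 and Tyrobp the groups overlapped, with adenine 2 (5.77 and 47.4 CPM) under control 2 (8.98 and 50.1 CPM).

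**Figure D5:**
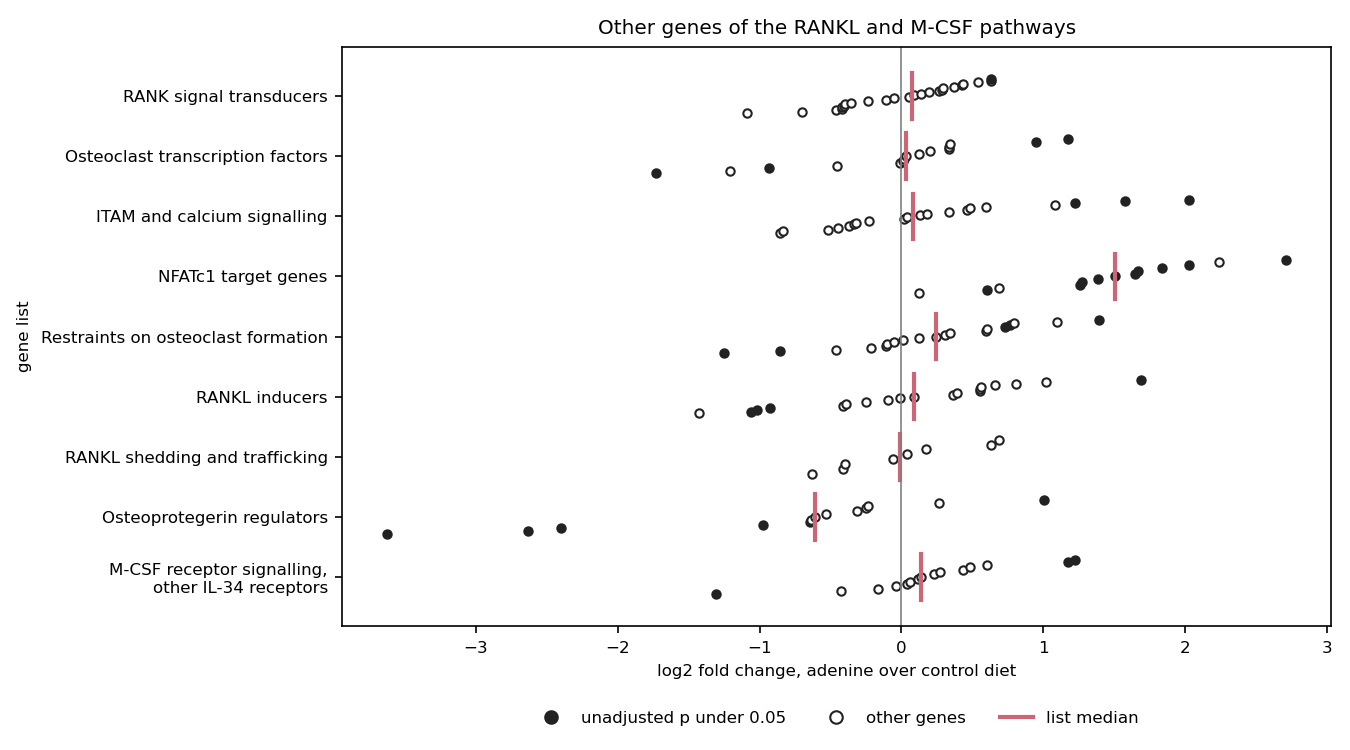
Log2 fold change (adenine over control) of every tested gene of 9 pathway lists, filled where the unadjusted edgeR p was under 0.05, with each list's median as a red line. Genes of the NFATc1 target list all lie above 0 with a median of 1.504, and 11 of 13 osteoprotegerin regulators lie below 0 with a median of -0.61. The regulator list mixes activators such as Wnt16 with the Wnt inhibitor Sost.

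Of 13 tested regulators of osteoprotegerin, 11 had a negative log2 fold change, 5 were lower and 1 higher at an unadjusted edgeR p under 0.05, and the median was -0.61 (-0.37 without control 3, and -0.25 without control 3 and adenine 1). Wnt16, a Wnt ligand that in mice raises osteoprotegerin in osteoblasts, had 24.7, 22.1 and 28.3 CPM in the control and 0.924, 3.46 and 1.73 CPM in the adenine libraries. This was a far wider gap than the spread within either group (log2 fold change -3.62, SE 0.48; edgeR adjusted p = 0.169; DESeq2 adjusted p = 4.3e-09). Ebf2, a transcription factor that in mice activates Tnfrsf11b, was 7.67 ± 2.22 in the control and 1.22 ± 0.434 CPM in the adenine libraries (-2.64, SE 0.49; DESeq2 adjusted p = 0.00158). The Notch ligand Jag1 (-0.97) and the receptor Notch1 (-0.64) also had adenine values wholly below control values. The fifth lower gene was Sost (-2.40), an osteocyte Wnt inhibitor, whose control 3 value of 6.61 CPM lay under all adenine values, and the higher gene was Tcf7 (7.27 ± 2.03 and 14.6 ± 5.83 CPM), both named after their values were seen. For Tcf7 the groups overlapped. Sost is also 1 of the 9 osteocyte markers. The list mixes activators such as Wnt16 with the Wnt inhibitor Sost, so its negative median gives no direction of effect on Tnfrsf11b. Osteocyte and fibroblast markers were lower in every adenine library (ranges above), and so were endothelial markers (6 of 6 tested), at 642 to 831 CPM in the control and 273 to 432 CPM in the adenine libraries. The median log2 fold change was -0.998 for osteocyte, -1.19 for endothelial and -2.24 for fibroblast markers, and the part of these cells in the lower regulators was not tested.

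Among 19 tested genes that induce RANKL or carry such a signal, 1 was higher and 3 lower at an unadjusted edgeR p under 0.05, with a median of 0.09. Lif, a cytokine of the IL-6 family, was 2.21 ± 1.48 and 7.14 ± 0.720 CPM (log2 fold change 1.69). Il6st, the shared receptor chain gp130, was 301 ± 76.1 and 149 ± 70.6 CPM (-1.02), and Il11ra1, the receptor for IL-11, 66.3 ± 20.4 and 31.8 ± 9.94 CPM (-1.06). The other lower gene was Rxra (-0.93, with overlapping groups), the partner of the vitamin D receptor. Il6, Il11 and Tnf were too low to be tested. The parathyroid hormone receptor Pth1r (0.55) and the vitamin D receptor Vdr (0.37), through which both hormones raise RANKL, did not reach an unadjusted edgeR p of 0.05. Both were looked up after the values had been seen. None of 8 genes for shedding and trafficking of RANKL had an unadjusted edgeR p under 0.05 (median -0.01).

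Restraints on osteoclast formation were split. Of 19 tested, 3 were higher and 2 lower at an unadjusted edgeR p under 0.05, with a median of 0.25. Bcl6, a repressor of osteoclast genes that Blimp-1 represses in turn, was 47.4 ± 20.0 and 19.9 ± 0.708 CPM (log2 fold change -1.25). Lgr4, which in mice binds RANKL in competition with RANK, was 30.4 ± 10.3 and 16.8 ± 2.91 CPM (-0.86). Pirb, an inhibitory receptor of myeloid cells, was 22.7 ± 11.3 and 59.7 ± 20.1 CPM (1.40). The feedback inhibitors Socs3 (0.73) and Tnfaip3 (0.77) were the other higher ones. Tnfaip3, whose groups overlapped, was named after its value was seen. Of 15 genes of M-CSF receptor signalling and other IL-34 receptors, 2 were higher, Spi1 and Tyrobp, and 1 lower (median 0.14). The lower one was Ptprz1, a further receptor of IL-34, at 26.7 ± 5.43 and 10.8 ± 1.35 CPM (-1.30; edgeR adjusted p = 0.181, DESeq2 adjusted p = 0.0284).

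The genes most like 3 of the 10 across the 6 libraries were found by the root mean square difference of centred log2 CPM profiles among 11487 protein-coding genes, as a description. Csf1r was most like Tcirg1 (0.107), Arsb (0.138) and Snx10 (0.150), and its nearest neighbour within the 10 was Csf1 (0.225). Tnfsf11 was most like Timp1 (0.177), Fkbp11 (0.215) and Tnfrsf19 (0.288), which shared its high value in adenine 3. Tnfrsf11b was most like Fbln7 (0.216), Gdf10 (0.274) and Map6 (0.289).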

How the data were processed

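PolyA RNA of flushed tibia cortex was sequenced, 3 libraries per diet. Per the labels' protocols the library may have been directional or not. The sources used here give no genome build, annotation or strand setting. Tools in the submitters' processing notes are featureCounts 1.5.0-p3, HISAT2 2.0.5, edgeR 3.22.5 and DESeq2. The authors deposited raw counts per gene and library, a normalized signal (counts divided by a size factor per library), FPKM, and log2 fold changes with p-values from their own comparison.

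Deposited counts were tested for diet in R 4.3.3 with edgeR 4.0.16 (quasi-likelihood, two-sided, TMM-scaled, robust moderation). filterByExpr (minimum count 10) left 15609 genes, and Benjamini-Hochberg adjustment ran over all of them with a threshold of 0.05. CPM are TMM-scaled. The biological coefficient of variation was 0.4386. Gene ratios used deposited FPKM and an exact permutation test over libraries. Alternatives were DESeq2 1.42.0, DESeq2 size factors, limma 3.58.1 on log2(FPKM + 1), other filters, a replicate block, marker levels as covariates and each library left out. The procedure was tested on simulated data.

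The members and lists were chosen with earlier results of these data known. Named genes are all 10 members, up to 4 genes per pathway list by smallest p, and the 3 nearest profiles of Tnfsf11, Tnfrsf11b and Csf1r. Promoters are from a RefSeq table of build GRCm38.p6, from which those of 6 of the 10 genes were taken. Csf1r and Nfatc1, on chromosome 18, were left out by choice, and Tnfrsf11b and Il34 had no usable entry. The files use another build, and coordinates were not mixed.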

Additional observations from a re-analysis of the deposited data

How the results depend on the processing

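The number of genes called after adjustment was 0 in the main edgeR test, 361 by the DESeq2 Wald test, 1 by limma on log2(FPKM + 1) and 66 with no filter on low counts, and 0 to 298 with 1 library left out, highest without adenine 2. Of the 10 genes, 3 were called by DESeq2 and 0 to 1 with 1 library left out (Csf1r without adenine 2). Genes at an unadjusted p under 0.05 numbered 1671, against 1080 with the muscle covariate, 657 with the kidney covariate, 570 without control 3 and adenine 1, and 906 to 3133 with 1 library left out. Of the 10 genes, 6 met that threshold in the main test, 4 to 6 with 1 library left out (4 without control 1) and 5 without control 3 and adenine 1. The log2 fold change turned for Traf6 without control 2 (-0.060) or adenine 2 (-0.0048), within a range of -0.060 to 0.39 with 1 library left out, and for Irf8 with the muscle covariate (-0.15), and the cause was not tested. Of 813 values of named genes under alternatives, these 3 reversed, 25 newly passed the adjusted threshold and 785 kept direction and side of it. As no gene passed in the main test, no call could be lost. The 785 also include smaller fold changes, such as that of Tnfsf11 without adenine 3 (0.69 against 1.42). Of 144 list medians 27 moved. Samples with the same replicate number did not deviate together (correlations -0.06, -0.50 and -0.20). Samples with different numbers had correlations of -0.37 to 0.44. With 3 libraries per group, such values cannot decide whether the numbers pair the samples, so pairing remains unknown. With the replicate block 986 genes had an unadjusted p under 0.05 and the ratio difference was 3.45 (exact sign-flip p = 0.25, the smallest that 3 pairs allow). The difference in the log2 ratio of Tnfsf11 to Tnfrsf11b was 2.95 to 4.18 with 1 library left out. It was 2.63 with 1 FPKM added to each value. The low counts of Tnfrsf11b in adenine 1 (20 counts) limit the precision of the ratio there.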

Other observations

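Ratios within the receptor pair and within the transcription factor pair, chosen after the values had been seen, overlapped between the diets. Tnfrsf11a to Csf1r in FPKM was 0.0684 to 0.136 in the control and 0.0788 to 0.136 in the adenine libraries, with a difference in mean log2 ratio of -0.12 (exact permutation p = 0.9). Prdm1 to Irf8 was 0.175 to 0.567 and 0.218 to 0.476, with a difference of 0.06 (exact permutation p = 0.9). These 2 were among 4 ratios computed, and a p above the threshold does not show that the ratios were equal.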
